A study of Mus musculus with 6 samples.

Results

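The genes of the nuclear pore were examined in mouse fully-grown oocytes (FGOs) at the stage of the germinal vesicle (GV). The oocytes were either wild type (WT) or, as Lsm14b-KO, without a working Lsm14b gene. Members were picked by symbol: every row whose symbol starts with Nup and a digit or with Nupl, together with Pom121, Rae1, Seh1l, Ndc1, Tpr, Aaas, Ranbp2, Sec13 and Ahctf1. This gave 33 of the 24255 rows of the table. One of the 33, Nup62-il4i1, is a read-through transcript and not a nucleoporin of its own. WT and Lsm14b-KO oocytes came from C57BL/6J-background females, which received 5 IU of the gonadotropin PMSG 46 h before collection. The age of these females is not given in the sources used here. The KO allele, Lsm14b tm1a(KOMP)Mbp, is homozygous and carries a reporter-tagged insertion in the gene of the RNA-binding protein LSM14B in all cells of the animal, so it is not restricted to the oocyte. Each of the 3 WT and 3 Lsm14b-KO libraries was made from 20 oocytes by Smart-seq2, which copies polyadenylated RNA. Nothing says whether the libraries of a group came from separate animals, so p-values measure the spread between these libraries only. Levels are in FPKM, fragments scaled by transcript length and by the mapped fragments of the library, and were compared as log2(FPKM + 1). FPKM is relative to each library, so neither the number of oocytes nor the amount of RNA per oocyte can be read from it.

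The nuclear pore complex is the gate in the nuclear envelope through which proteins enter and mRNAs leave the nucleus. Its scaffold is built from the Y complexes of the outer rings and from the inner ring, and it is anchored by membrane nucleoporins. Nucleoporins rich in phenylalanine-glycine (FG) repeats fill the channel and bind the transport receptors. Filaments reach into the cytoplasm, and a basket extends into the nucleus. The FGO holds a large nucleus, the germinal vesicle, whose envelope and pores are taken apart when meiosis resumes, so the nucleoporin mRNAs of this stage are part of the maternal store.

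The targeted gene checks the labels. In WT replicates 1, 2 and 3 Lsm14b was at 2.77, 3.98 and 1.72 FPKM, and in Lsm14b-KO replicates 1, 2 and 3 at 0, 0 and 0.102 FPKM. All 10 oocyte markers looked at, among them Zp3 and Gdf9, were present, with summed levels of 49988 to 62094 FPKM in WT and 32273 to 80180 FPKM in Lsm14b-KO libraries. The largest value of a marker was 63633 FPKM, for Dppa3, so a single gene can carry much of a sum. Of 10 cumulus and granulosa cell markers, Amh, Foxl2, Inhba and Ptx3 were at 0 throughout, 6 were above 0 and 3 reached 1 FPKM, with Cyp19a1 the highest at up to 11.5 FPKM. Their summed level was 9.73 to 13.5 FPKM in WT and 6.13 to 10.1 FPKM in Lsm14b-KO libraries. Red blood cell markers were all at 0, and of the 4 leukocyte markers Ptprc and Lyz2 were at 0 and Cd68 reached 0.728 FPKM. The libraries were unequal in relative depth, which was inferred from ratios of low FPKM values and not counted. Set to 1 in WT replicate 1, it was 1.03 to 1.14 in the rest of the WT group. In Lsm14b-KO replicates 1, 2 and 3 it was 1.33, 1.95 and 2.17. Lsm14b-KO replicate 1 lay between the groups. Over the 6398 genes tested its Pearson's r was 0.952 to 0.954 with WT, 0.917 with Lsm14b-KO replicate 2 and 0.960 with Lsm14b-KO replicate 3. Lsm14b-KO replicates 2 and 3 had an r of 0.974 with each other. Member values that Lsm14b-KO replicate 1 moved by more than 1.5 times are also given without it.

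A small part of the family held most of its mRNA. In WT oocytes only Nup37, Nup43 and Nup35 had a mean above 10 FPKM, a further 9 members lay between 1 and 10 FPKM, and 21 lay below 1 FPKM. Nup37 and Nup43 encode small propeller proteins at the edge of the Y complex, and Nup35 encodes an inner ring protein that links the scaffold to the membrane. Together these 3 genes made up 83.7% to 87.3% of the summed FPKM of all members in the WT libraries. They made up 87.3%, 54.1% and 63.5% in Lsm14b-KO replicates 1, 2 and 3. Next in order were Nup98 (7.19 ± 2.36 FPKM, SD, n = 3) and Sec13 (5.54 ± 1.72 FPKM, SD, n = 3), whose WT values overlapped. Nup54 followed at 2.96 ± 0.27 FPKM (SD, n = 3). Its WT values overlapped neither those of Sec13 nor those of Rae1, which had 2.02 ± 0.58 FPKM (SD, n = 3). Large scaffold nucleoporins were among the lowest, with WT means of 0.078 FPKM for Nup205 and 0.043 FPKM for Nup133. Across the 31 members above 0 in WT, the log2 WT mean had a Pearson's r of -0.58 with log2 transcript length, against -0.32 across 6279 tested genes. The sets are unlike: the 31 include members under 1 FPKM in all libraries, while the 6279 genes each reached 1 FPKM in at least 1 library. Both values are across genes, which share the same 3 libraries, and carry no test. Summed over the members, WT libraries held 197 ± 7.08 FPKM and Lsm14b-KO libraries 196 ± 19.2 FPKM (SD, n = 3 each). As a share of all FPKM in the library it was 0.0162% to 0.0175% in WT and 0.0211%, 0.0319% and 0.0283% in Lsm14b-KO replicates 1, 2 and 3, whose FPKM totals were lower.

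**Figure D1:**
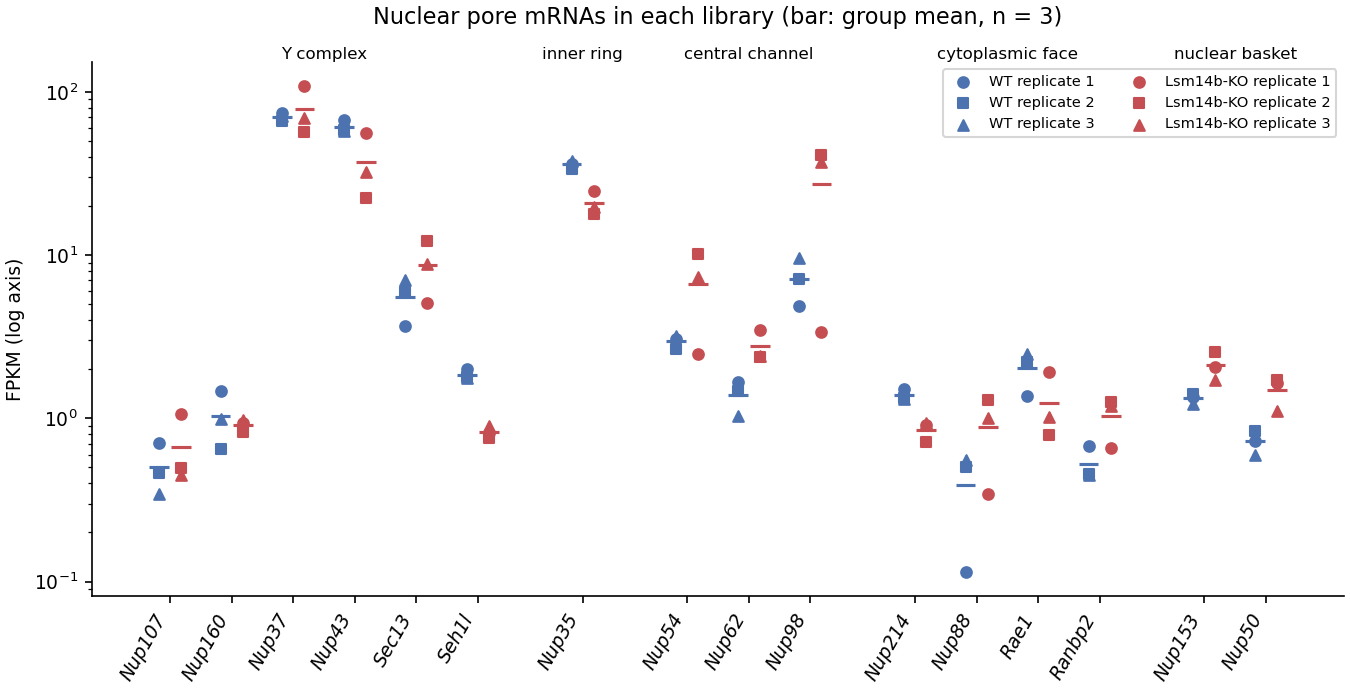
FPKM (log axis) of the 16 nuclear pore genes tested, in each of the 3 WT (blue) and 3 Lsm14b-KO (red) libraries, by part of the pore, with a bar at each group mean. Nup37, Nup43 and Nup35 stand above the rest in WT, and Nup98 reaches 41.3 and 37.4 FPKM in Lsm14b-KO replicates 2 and 3 against 3.37 FPKM in replicate 1.

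To ask which nuclear pore mRNAs depend on the Lsm14b genotype, all 6398 genes that reached 1 FPKM in at least 1 library were fitted together in limma. Of the 33 members, 16 reached that level and were tested. At an adjusted p under 0.05 only Seh1l was called, lower in Lsm14b-KO FGOs, and no member was called higher. Seh1l entered the test through the WT libraries alone, where it is higher. That is 1 of 16 members (6.25%), where 21.6% of all tested genes were called, made up of 6.38% called higher and 15.2% called lower. At an unadjusted p under 0.05 there were 4 members, Nup50 and Nup62 with a higher and Nup35 and Seh1l with a lower fitted level. Of the 16 fitted changes 10 were positive (62.5%, against 46.8% of all tested genes). Their median was 0.27 on the log2 scale, and that of all tested genes was -0.075. Neither figure stands for the family: Nup107, Nup50, Nup88 and Ranbp2 reached 1 FPKM in Lsm14b-KO libraries only, and Nup160, Nup214 and Seh1l in WT libraries only. Scaling every library to the same FPKM sum moved the median of all tested genes by 0.48, quantile normalization moved it by 0.14, and a correction for transcript length and GC content moved it by 0.15. The members' median lay 0.35 above that of all tested genes as deposited, 0.35 above it with equal sums, 0.31 above it with quantile normalization and 0.096 above it after the correction. Without the filter on low values it lay 0.12 above that of all genes fitted, over 31 members. With equal sums 3 members were called, all higher (Nup37, Nup50 and Nup62), where 20.6% of all tested genes were called. The log2 fold change then grew to 1.93 for Nup98, 1.38 for Nup54, 1.16 for Sec13 and 1.13 for Nup62. It grew to 0.92 for Nup50, 0.87 for Nup153, 0.76 for Ranbp2 and 0.74 for Nup88, while the fitted decreases given below became smaller. The median of all tested genes rose as well, to 0.40.

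**Figure D2:**
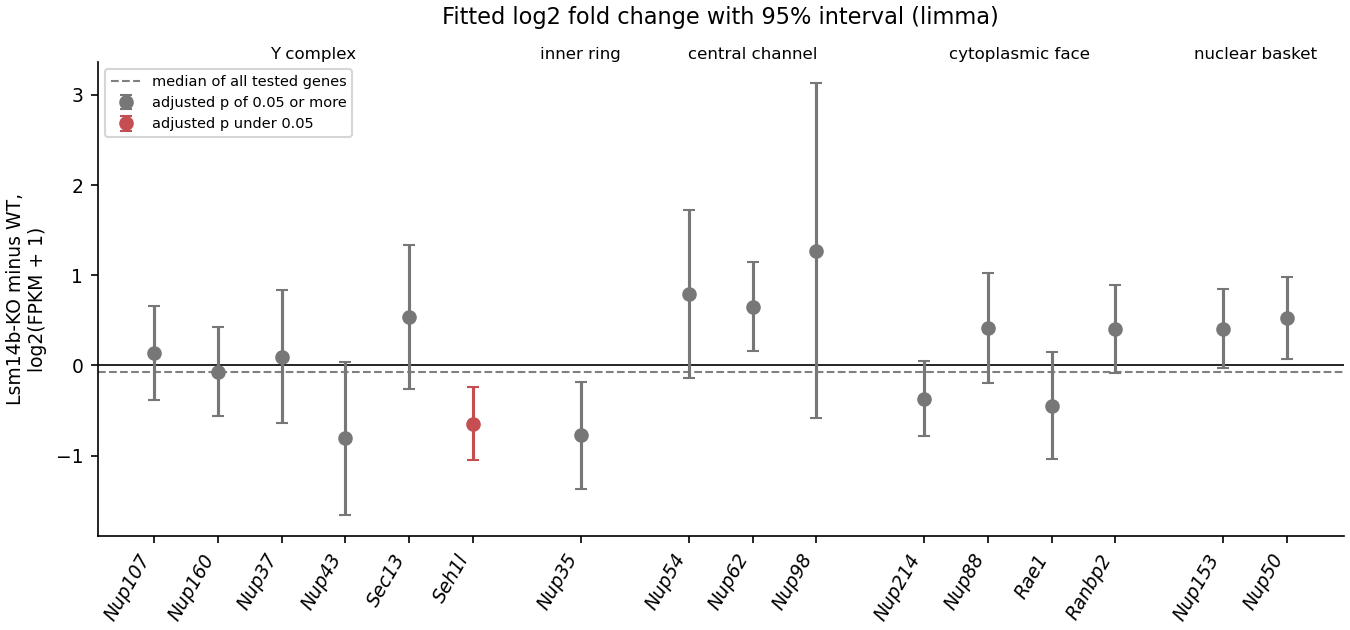
Fitted log2 fold change (Lsm14b-KO minus WT on the log2(FPKM + 1) scale) of the 16 tested members with its 95% interval from limma, by part of the pore. The dashed line is the median of all tested genes, at -0.075. Only the interval of Seh1l (red) belongs to an adjusted p under 0.05, and that of Nup98 is the widest, from -0.58 to 3.13.

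In the Y complex, the main building block of the outer rings, 6 of 9 members were tested and 1 was called. Seh1l (chromosome 18, 67774876 to 67795487, plus strand, GRCm38/mm10) encodes a propeller protein that the Y complex shares with the GATOR complex of nutrient sensing. In WT replicates 1, 2 and 3 it was at 1.996, 1.79 and 1.76 FPKM, and in Lsm14b-KO replicates 1, 2 and 3 at 0.809, 0.761 and 0.897 FPKM. All Lsm14b-KO values lay well below all WT values, and the libraries of each group lay close together. The fitted log2 fold change was -0.64 (limma SE 0.18, adjusted p 0.0374), and the mean in Lsm14b-KO FGOs was 0.445 times that in WT. The call was kept in 4 of 13 alternatives, all of which had the same direction. It was lost without the filter on low values, which Seh1l passed in WT libraries only (limma adjusted p 0.0715), without any single WT library and without Lsm14b-KO replicate 2 or 3 (limma adjusted p 0.0816 to 0.114 without a library). It was also lost without the intensity trend (limma adjusted p 0.0503) and with the replicate number as a block (limma adjusted p 0.0728). With equal FPKM sums the log2 fold change was -0.26 (limma adjusted p 0.412). The gene overlaps 4930549G23Rik on the other strand, which was at 0 in 4 of the 6 libraries.

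The abundant Y complex genes did not pass the test. Nup43 (chromosome 10, 7667503 to 7678881, plus strand) overlaps Pcmt1 on the other strand in GENCODE vM21, while no other row has its deposited locus. Nup43 had 67.4, 58.7 and 57.9 FPKM in WT and, in order of replicate, 56.2, 22.4 and 32.4 FPKM in Lsm14b-KO libraries. The groups did not overlap, but Lsm14b-KO replicate 1 was just below the lowest WT library. On the log2 scale the fitted change was -0.81 (limma SE 0.37, adjusted p 0.138). Without Lsm14b-KO replicate 1 it was -1.15 (limma adjusted p 0.00665), and without replicate 2 it was -0.51. It was -0.13 with equal FPKM sums (limma adjusted p 0.676), -0.32 with quantile normalization and -0.33 after the length and GC correction. Nup37 (chromosome 10, 88146992 to 88178390, plus strand) had 73.8, 66.6 and 71.1 FPKM in WT and 109, 57.2 and 69.1 FPKM in Lsm14b-KO libraries. Here the Lsm14b-KO values were spread around those of WT, with a log2 fold change of 0.098 (95% interval -0.64 to 0.84), which was -0.16 without Lsm14b-KO replicate 1. With equal FPKM sums Nup37 was called higher, with a log2 fold change of 0.78 (limma adjusted p 0.039). Sec13, which works both in the Y complex and in the COPII coat of vesicles leaving the endoplasmic reticulum, had 3.66, 5.93 and 7.03 FPKM in WT. In Lsm14b-KO replicates 1, 2 and 3 it had 5.09, 12.2 and 8.88 FPKM, of which replicate 1 lay within the WT range. Its log2 fold change was 0.54 (limma adjusted p 0.269), which became 0.84 without Lsm14b-KO replicate 1 (limma adjusted p 0.0505), 0.28 without replicate 2 and 0.31 without WT replicate 1.

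The long scaffold subunits of the Y complex were low. Nup107 and Nup160 had log2 fold changes of 0.14 and -0.069, with 95% intervals of -0.38 to 0.66 and -0.56 to 0.42. Nup107 turned to -0.024 without Lsm14b-KO replicate 1, and Nup160 to 0.29 with equal FPKM sums and to 0.082 without WT replicate 1. Nup133, Nup85 and Ahctf1 stayed under 1 FPKM in all libraries. Ahctf1, which encodes ELYS, the protein that starts pore assembly on chromatin, had 0.029, 0.13 and 0.17 FPKM in WT and 0.33, 0.39 and 0.23 FPKM in Lsm14b-KO libraries. Its 3 Lsm14b-KO values lay above its 3 WT values.

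Of the 5 inner ring genes only Nup35 was tested. Nup35 (chromosome 2, 80617236 to 80658906, plus strand) overlaps Dusp19 on the same strand and has 1 near-identical copy elsewhere, Gm4353. It had 36.2, 33.9 and 37.9 FPKM in WT and, in order of replicate, 24.9, 17.8 and 19.8 FPKM in Lsm14b-KO libraries. The groups did not overlap. The log2 fold change was -0.77 (SE 0.26, 95% interval -1.37 to -0.18), which missed the threshold after adjustment (limma adjusted p 0.0649). It passed without Lsm14b-KO replicate 1, without the intensity trend and among genes with a mean of at least 5 FPKM, 3 of its 14 alternatives, and was negative in all 14. It shrank to -0.11 with equal FPKM sums (limma adjusted p 0.740), to -0.38 with quantile normalization and to -0.41 under the correction for length and GC content. Dusp19 had 22.6, 17.9 and 15.1 FPKM in WT and, in order of replicate, 12.2, 3.04 and 6.08 FPKM in Lsm14b-KO libraries. Its part in the Nup35 values was not tested. The other inner ring genes, Nup93, Nup155, Nup188 and Nup205, had means of 0.078 to 0.34 FPKM in WT and of 0.11 to 0.30 FPKM in Lsm14b-KO FGOs, and the groups overlapped in each.

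Of the 5 central channel genes, Nup98, Nup54 and Nup62 were tested and none was called. Nup98 (chromosome 7, 102119398 to 102210176, minus strand, with no overlapping annotated gene) encodes a precursor that is cleaved into the FG nucleoporin NUP98 and the Y complex subunit NUP96. It had 4.86, 7.12 and 9.58 FPKM in WT and, in order of replicate, 3.37, 41.3 and 37.4 FPKM in Lsm14b-KO libraries. Lsm14b-KO replicates 2 and 3 were far above every WT library, while replicate 1 was below all of them. For Nup98 the log2 fold change was 1.27 with an SE of 0.80, the largest among the members (limma adjusted p 0.261). Without Lsm14b-KO replicate 1 it was 2.34 (limma adjusted p 0.00117). Nup98 held 2.39% to 4.80% of the summed member FPKM in WT libraries. In Lsm14b-KO replicates 1, 2 and 3 it held 1.55%, 22.96% and 19.6%.

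Nup54, a coiled-coil FG nucleoporin of the channel, also had its lowest value in Lsm14b-KO replicate 1 and its highest in replicates 2 and 3. It had 3.04, 2.66 and 3.18 FPKM in WT and, in order of replicate, 2.47, 10.1 and 7.32 FPKM in Lsm14b-KO libraries. For Nup54 this gave a log2 fold change of 0.79 (limma SE 0.40, adjusted p 0.178), and 1.28 without Lsm14b-KO replicate 1 (limma adjusted p 0.00386). Nup54 has 1 near-identical copy, Gm15790. Nup62, the partner of NUP54 in the channel, behaved otherwise: it had 1.67, 1.46 and 1.04 FPKM in WT and 3.49, 2.39 and 2.41 FPKM in Lsm14b-KO libraries. All Lsm14b-KO values lay above all WT values, with replicate 1 the highest. The log2 fold change was 0.65 (SE 0.21, 95% interval 0.16 to 1.14), and the adjusted p was 0.0619 in limma. Nup62 shares its deposited locus with 4 other rows, Atf5, Il4i1, Tbc1d17 and the read-through Nup62-il4i1, each of which was at 0 in all 6 libraries. The remaining partner, Nupl1 (NUP58), was under 1 FPKM throughout, with 0.24, 0.21 and 0.11 FPKM in WT and 0.27, 0.91 and 0.81 FPKM in Lsm14b-KO libraries. Nup62cl was at 0 in all libraries.

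**Figure D3:**
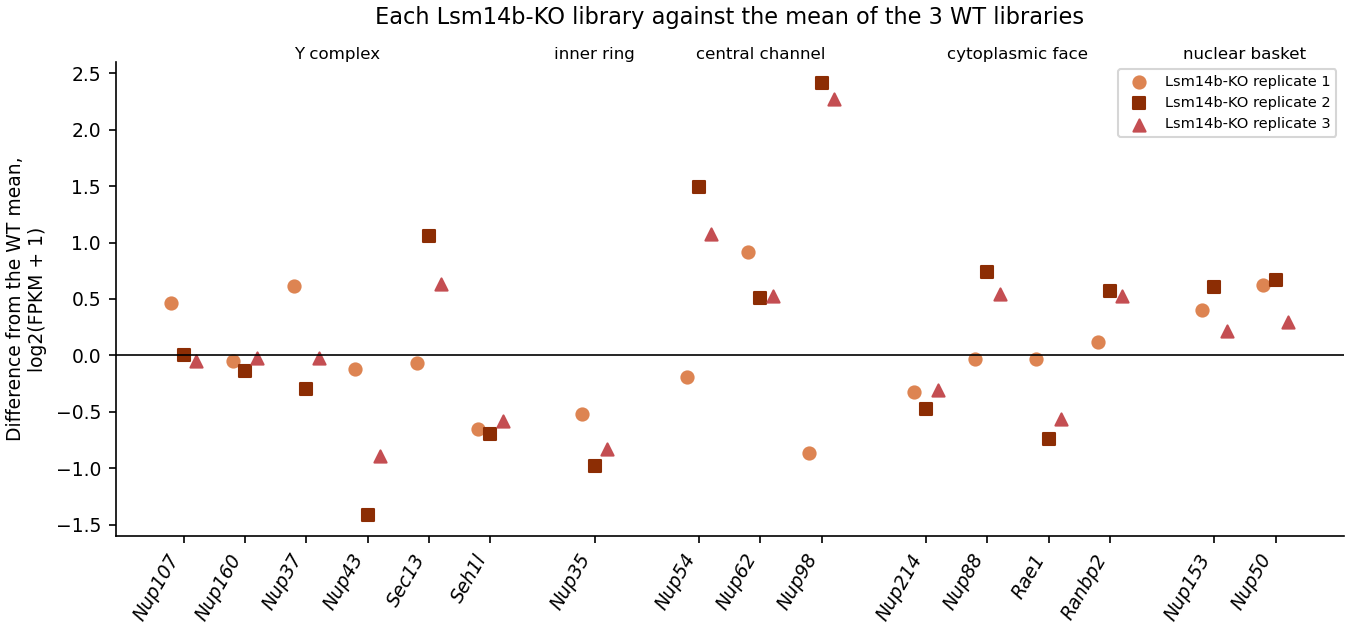
Difference of each Lsm14b-KO library from the mean of the 3 WT libraries on the log2(FPKM + 1) scale, for the 16 tested members by part of the pore. For Nup98 replicate 1 lies at -0.86 and replicates 2 and 3 at 2.41 and 2.27, whereas for Seh1l the 3 replicates lie between -0.69 and -0.59.

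On the cytoplasmic face 4 of 6 genes were tested and none was called. Nup214, whose protein holds the mRNA export helicase at the pore, had 1.52, 1.33 and 1.32 FPKM in WT and 0.91, 0.71 and 0.93 FPKM in Lsm14b-KO libraries. The groups did not overlap, and the fitted change was -0.37 on the log2 scale (limma SE 0.18, adjusted p 0.161). With equal FPKM sums it was -0.0048 (limma adjusted p 0.989), and after the length and GC correction -0.69 (limma adjusted p 0.055). Its partner Nup88 had 0.11, 0.50 and 0.56 FPKM in WT and, in order of replicate, 0.34, 1.30 and 1.00 FPKM in Lsm14b-KO libraries, with a log2 fold change of 0.42 (limma adjusted p 0.267). Without Lsm14b-KO replicate 1 this was 0.64 (limma adjusted p 0.0566), without replicate 2 it was 0.25, and without WT replicate 1 it was 0.26. Ranbp2, the filament protein that anchors SUMO-modified RanGAP1, had a log2 fold change of 0.40 (95% interval -0.079 to 0.89), and its Lsm14b-KO replicate 1, at 0.66 FPKM, lay within the WT range. Without that library it was 0.55 (limma adjusted p 0.052). Rae1, which binds NUP98 and mRNP in export, had 1.36, 2.23 and 2.47 FPKM in WT and 1.91, 0.79 and 1.01 FPKM in Lsm14b-KO libraries. The fitted change of -0.45 (log2, limma adjusted p 0.225) was -0.65 without Lsm14b-KO replicate 1 (limma adjusted p 0.0587) and -0.057 with equal FPKM sums (limma adjusted p 0.878). Aaas and Nupl2 stayed under 1 FPKM.

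In the nuclear basket, Nup153 and Nup50 were tested and Tpr was not. NUP153 anchors the basket to the nuclear ring, and NUP50 helps to release cargo from importin alpha. Nup50 (chromosome 15, 84923411 to 84942963, plus strand) had 0.73, 0.84 and 0.60 FPKM in WT and 1.65, 1.73 and 1.11 FPKM in Lsm14b-KO libraries. The groups did not overlap, and the mean in Lsm14b-KO FGOs was 2.07 times that in WT. The log2 fold change was 0.53 (limma SE 0.20, adjusted p 0.0874). Nup153 had 1.35, 1.42 and 1.23 FPKM in WT and 2.07, 2.55 and 1.71 FPKM in Lsm14b-KO libraries, again without overlap, with a log2 fold change of 0.41 (limma SE 0.19, adjusted p 0.149). Tpr, the coiled-coil protein of the basket, had 0.23, 0.30 and 0.11 FPKM in WT and 0.078, 0.57 and 0.35 FPKM in Lsm14b-KO libraries.

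The membrane ring genes were near the limit of detection, and none was tested. Pom121 had 0.17 to 0.38 FPKM in WT and 0.11 to 0.96 FPKM in Lsm14b-KO libraries, and Ndc1 had 0.19 to 0.54 and 0.33 to 0.50 FPKM. Nup210 was at 0, 0.032 and 0.036 FPKM in WT and at 0, 0.019 and 0.017 FPKM in Lsm14b-KO libraries. When its values were multiplied by the relative depth of their library, they came out as 1 step in each of the 4 libraries above 0, as 1 fragment, or a few fragments of equal number, would give. The same held in whole steps, within 0.05 of a step, for 12 of the 15 untested members that were above 0, with their smallest value taken as 1 to 3 steps. Nup133 came out as 2, 1 and 0 steps in WT and as 2, 8 and 2 steps in Lsm14b-KO replicates 1, 2 and 3. For Nup85 the numbers were 0, 1 and 0 in WT and 0, 8 and 8 in Lsm14b-KO libraries, and for Nupl1 they were 2, 2 and 1 in WT and 3, 15 and 15 in Lsm14b-KO libraries. The step counts are thus small. Lsm14b-KO replicates 2 and 3 had the highest of them in Nup85 and Nupl1. These 2 libraries also had the highest inferred depth, whose part was not tested. Of the 15 untested members above 0, 12 had a higher mean in Lsm14b-KO FGOs, where 48.8% of all genes below 1 FPKM in every library and above 0 in WT did. In 2 of them, Ahctf1 and Nupl1, all Lsm14b-KO values exceeded all WT values, where 10.4% of those genes did. When the filter on low values was dropped, 31 members entered the fit and none was called in limma, where 5.03% of all genes fitted were, with 4 higher and 2 lower at an unadjusted p under 0.05.

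The separation of the groups was counted over the tested members. In 7 of 16 (43.8%) the WT and Lsm14b-KO ranges did not overlap, which was so for 45.0% of all tested genes. Nup153, Nup50 and Nup62 had all Lsm14b-KO values above, and Nup214, Nup35, Nup43 and Seh1l had all below. The Lsm14b-KO libraries differed among themselves: the median difference of the 16 members from the WT mean was -0.042 in replicate 1, 0.26 in replicate 2 and 0.098 in replicate 3. For all tested genes these medians were -0.037, -0.14 and -0.069. Without Lsm14b-KO replicate 1 limma called 5 of the 16 members, Nup54 and Nup98 as higher and Nup35, Nup43 and Seh1l as lower, where 45.3% of all tested genes were called. Without any other single library it called none of the 16, with 1 to 4 of them at an unadjusted p under 0.05. Of all tested genes it called 6.19%, 6.21% and 7.22% without WT replicates 1, 2 and 3, and 13.5% and 4.92% without Lsm14b-KO replicates 2 and 3.

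Transcript length moved with the changes. The log2 fold change had a Pearson's r of 0.35 with log2 transcript length across the 16 tested members and of 0.33 across 6305 tested genes with a known length. After a correction for length and GC content in each library the values were -0.097 and -0.013. These are descriptions across genes of the same 6 libraries. Nup37, Nup43, Nup35, Sec13 and Rae1 are encoded by transcripts of 1277 to 1742 nt, while those of Nup98, Nup214 and Ranbp2 have 6694, 6605 and 9608 nt. Under the correction Seh1l was still called (log2 fold change -0.66, limma adjusted p 0.0288), and Nup98 had a log2 fold change of 0.99 (limma adjusted p 0.349). Other members moved more. Nup153 went from 0.41 to 0.16, Ranbp2 from 0.40 to 0.17, Nup50 from 0.53 to 0.30 and Nup107 from 0.14 to 0.029. Nup160 went from -0.069 to -0.30, while Sec13 went from 0.54 to 0.86 and Nup37 from 0.098 to 0.64. With Nup35, Nup43 and Nup214, described above, 10 of the 16 thus moved by more than 1.5 times.

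**Figure D4:**
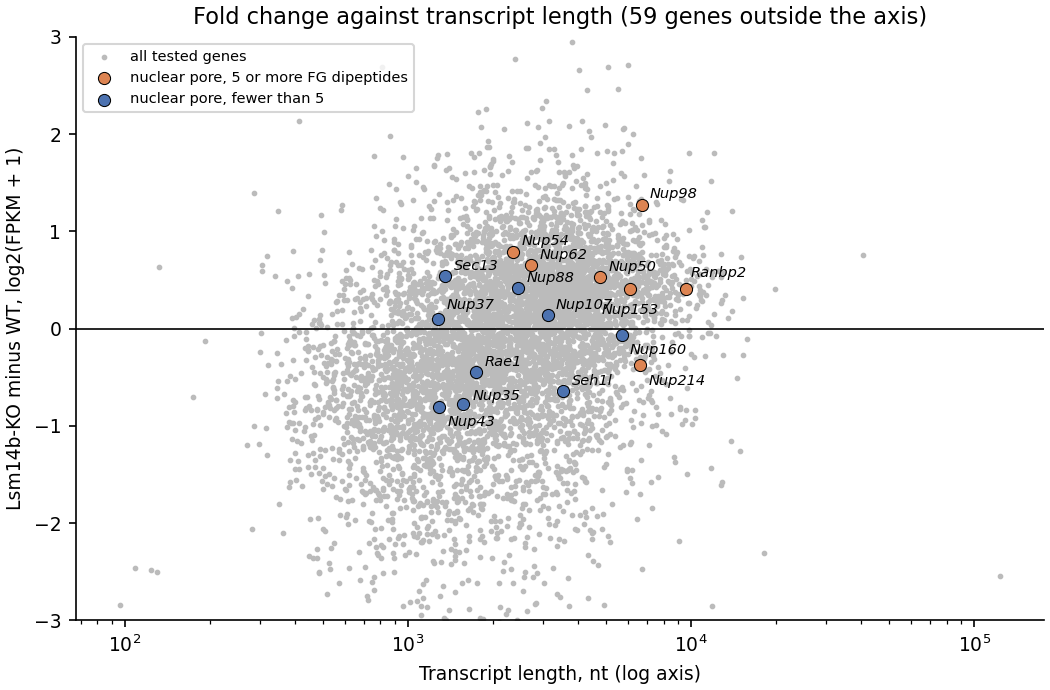
Fitted log2 fold change (Lsm14b-KO minus WT, log2(FPKM + 1)) against transcript length in nt (log axis) for 6305 tested genes (grey), of which 59 lie more than 3 from 0 and off the axis, with the 16 tested nuclear pore genes marked by their number of FG dipeptides. The 7 members with 5 or more (orange) have a median of 0.53, and the other 9 (blue) a median of -0.069. This split was chosen after the values were seen and carries no test. Some members of both colours passed the filter on low values through the libraries of a single group. Without that filter the medians were 0.41 over 12 members with 5 or more and 0.064 over 19 others.

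Genes that work with the pore were taken from 3 lists. Of 29 Ran cycle and mRNA export genes in the table, 17 were tested, with 3 called higher and 3 lower and a median log2 fold change of -0.25. Ran, the GTPase whose gradient gives transport its direction, rose from 19.8 ± 3.75 to 50.6 ± 12.2 FPKM (SD, n = 3 each), and the log2 fold change was 1.30 (limma SE 0.30, adjusted p 0.022). Nxf1, the main mRNA export receptor, rose from 0.28 ± 0.20 to 1.40 ± 0.60 FPKM (SD, n = 3 each, limma adjusted p 0.0387), whereas Nxt2, which encodes a partner of the NXF1 family, fell from 1.99 ± 0.89 to 0.15 ± 0.093 FPKM (SD, n = 3 each, limma adjusted p 0.0109). Senp1, a SUMO protease found at the pore, rose (log2 fold change 0.77, limma adjusted p 0.0377). Nxf1 and Senp1 reached 1 FPKM in Lsm14b-KO libraries only and Nxt2 in WT libraries only, so each entered the test through the group where it is high. Shfm1 and Eny2, small subunits of the TREX-2 export complex at the basket, fell by 2.22 and 1.83 on the log2 scale (limma adjusted p 0.0259 and 0.0475). Their Lsm14b-KO values were unequal, with 246, 53.3 and 78.3 FPKM of Shfm1 in replicates 1, 2 and 3.

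Of 23 genes of the nuclear lamina and envelope 10 were tested, with none called higher and 3 called lower, and their median log2 fold change was -0.11. Tor1a, an ATPase of the envelope lumen, fell from 73.1 ± 15.1 to 17.0 ± 5.77 FPKM (SD, n = 3 each), and the log2 fold change was -2.07 (limma SE 0.32, adjusted p 0.00581). Banf1, which crosslinks chromatin beneath the envelope, fell from 3013 ± 229.5 to 1193 ± 709 FPKM (SD, n = 3 each, limma adjusted p 0.0449). Its Lsm14b-KO values were unequal, at 1969, 580 and 1030 FPKM in replicates 1, 2 and 3. Tmem33, a membrane protein of the endoplasmic reticulum and envelope, fell from 4.62 ± 0.11 to 1.83 ± 0.59 FPKM (SD, n = 3 each, limma adjusted p 0.0168). Of 24 importins and exportins 8 were tested, with 1 called higher and 1 lower and a median log2 fold change of 0.42. Cse1l, which returns importin alpha to the cytoplasm, was called higher, with a log2 fold change of 0.63 (limma adjusted p 0.047), and it too reached 1 FPKM in Lsm14b-KO libraries only. Kpna3, an importin alpha, was called lower, with a log2 fold change of -1.19 (limma adjusted p 0.0157). The shares called were 35.3%, 30.0% and 25.0% of the tested genes of the 3 lists, 6.25% of the tested nuclear pore genes and 21.6% of all tested genes. These shares rest on 17, 10, 8 and 16 genes, and their differences were not tested. Calls in the 3 lists are given only for all libraries as deposited, not under other scalings or without single libraries.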

How the data were processed

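RNA-Seq libraries of 3 WT and 3 Lsm14b-KO samples were analysed, grouped by their titles. The authors aligned trimmed reads to mm10 with TopHat2 (2.0.13) and computed the deposited FPKM values with Cufflinks (2.2.1). The annotation and the strandedness of the libraries are not given in the sources used here, so reads from overlapping genes on opposite strands may not be told apart. The labels name different library kits in different places. The authors' own fold change, p and q columns (3 columns) were not used.

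The deposited FPKM values were used as log2(FPKM + 1). A gene had to reach 1 FPKM in 1 or more libraries, and those that did were tested together with limma 3.58.1 in R 4.3.3 (genotype as the only term, eBayes with an intensity trend, two-sided, Benjamini-Hochberg adjustment over 6398 genes, calls at 0.05). The script was tested on simulated data. The simulation left out genes of low mean level, Seh1l and most other tested members among them, so it does not bear on calls at such levels. An exact permutation test of 3 against 3 libraries cannot go below 0.10 and was not used. The table holds no counts. Relative depth was taken as the commonest ratio to WT replicate 1 among genes below 0.3 FPKM, which 312 to 501 of 1492 to 1626 such genes shared. It stands for depth only if FPKM was scaled by the mapped fragments of each library alone. Cuffnorm and Cuffdiff are also named among the authors' tools, and their part in the scaling was not tested.

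Coordinates, overlaps, transcript length and FG dipeptides came from GENCODE vM21 (GRCm38, the assembly of mm10), by the longest coding transcript with a RefSeq match. All members but Nup62-il4i1 were matched. Near-identical copies were sought with blastn 2.17.0 at 95% identity over 200 nt. Every member was named or counted, and from the 3 further lists up to 5 called genes in each direction were named. The overlapping and locus-sharing genes named beside a member were chosen after the values were seen. Other members, Ahctf1, Nupl1, Nup88 and Nup214 among them, also overlap annotated genes, which are not described here. Members and lists were chosen with earlier results of these data known.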

Additional observations from a re-analysis of the deposited data

How the results depend on the processing

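Alternatives changed a choice at a time: pseudocount, filter, scaling, trend, a replicate block and leaving out each library. The number of members called higher, 0 with all libraries, became 3 with TPM scaling and ran from 0 to 2 when a library was left out. The number called lower, 1, became 0 without a filter on low values, 0 with TPM scaling and 0 with the replicate number as a block (the replicate block), and ran from 0 to 3 when a library was left out. It stayed at 1 without the intensity trend and at a mean of at least 5 FPKM, but there the gene called was Nup35 and not Seh1l. Of the libraries left out, only Lsm14b-KO replicate 1 added calls to the members. The members' median log2 fold change of 0.27 moved to 0.46 at a pseudocount of 0.1, to 0.75 with TPM scaling and to 0.098 among the 5 members with a mean of at least 5 FPKM, and ran from 0.19 to 0.29 when a library was left out. Without the filter on low values the members' median was 0.14, over 31 members. Over all genes the 1383 calls became 720 without a filter, 862 at a mean of at least 5 FPKM, 1319 with TPM scaling (833 higher and 486 lower), 1275 with quantile normalization (540 higher and 735 lower) and 1392 after the length and GC correction (574 higher and 818 lower). They ran from 315 to 2898 when a library was left out.

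Among 213 values of single members under these alternatives, 4 changed sign: Nup160 to 0.29 with TPM scaling and to 0.082 without WT replicate 1, Nup107 to -0.024 and Nup37 to -0.16 without Lsm14b-KO replicate 1. When a library was left out, Nup160 ran from -0.21 to 0.082, Nup107 from -0.024 to 0.23 and Nup37 from -0.16 to 0.30. A further 9 lost and 9 gained a call. The deviations of same-numbered libraries correlated at 0.19, -0.13 and 0.018, and those of libraries with unlike numbers at -0.275 to 0.306. With so few libraries these values cannot decide whether the replicate numbers pair the libraries. The block gave 1244 calls over all genes. The cause of these moves was not tested. The table holds no counts, so the counting error behind the 17 members below 1 FPKM is unknown.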

Other observations

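The tested members were also grouped by the number of phenylalanine-glycine (FG) dipeptides in their protein, counted in the translated GENCODE transcript. This grouping was chosen after the values were seen and carries no test. Tested members had either 3 or fewer or 5 or more. Those with 5 or more were Nup153, Nup214, Nup50, Nup54, Nup62, Nup98 and Ranbp2, and 6 of these 7 had a positive log2 fold change, with a median of 0.53 and a range of -0.37 to 1.27. Nup50 and Ranbp2 had passed the filter on low values through Lsm14b-KO libraries only and Nup214 through WT libraries only, so the filter bears on these signs. The exception was Nup214, which has the most, 46. Of the other 9 members 4 were positive, with a median of -0.069 and a range of -0.81 to 0.54. Among these 9, Nup107 and Nup88 passed the filter through Lsm14b-KO libraries only, and Nup160 and Seh1l through WT libraries only. Without the filter the medians were 0.41 over 12 members with 5 or more and 0.064 over 19 others. With TPM scaling the medians of the groups were 0.92 and 0.29, with quantile normalization 0.52 and -0.089, after the length and GC correction 0.296 and -0.298, and without Lsm14b-KO replicate 1 they were 0.52 and -0.16. The groups also differed in transcript length, with medians of 6109 and 1742 nt, whose part was not tested.

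The hexamer CCTCTC, searched on the transcript strand because the study ties it to LSM14B binding, was in the annotated 3′UTR of 4 of the 16 tested members (25.0%) and of 29.9% of 5921 tested genes with an annotated 3′UTR. The median 3′UTR was 446 nt in the members and 833 nt in all of these genes. Seh1l, Rae1, Nup54 and Nup62 were the 4 members. A match of these letters is not a binding site.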
